A study of Homo sapiens with 27 samples.

Results

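The comparison described here sets a symmetric piggyBac transposon against the wild-type transposon, both mobilised by the re-engineered hyperactive piggyBac transposase. It rests on 6 of the 27 libraries of the series, chosen by their sample titles: 3 of the symmetric transposon (sym_rehyPB) and 3 of the wild-type transposon (WT_rehyPB). All 6 were made from HCT116, an established human colorectal carcinoma line, which had received a self-reporting transposon and had then grown in puromycin at 3 µg/ml for 2 weeks. Both groups share the cell line, the selection and the transposase, and they differ in the transposon. The construct names attached to the lists call the ends of the wild-type transposon re230 and le307 and those of the symmetric transposon le40 and le40, so both named ends differ between the groups. The labels explain neither these numbers nor the changes behind the words re-engineered and symmetric. They also state that the primers inside the transposon were chosen per construct, so transposon and primers cannot be told apart. Nothing in the labels says whether the 3 libraries of a group came from separate transfections, so the spread between these samples may be technical. The exact permutation p-values compare libraries. The p-values of genes and bins come from a model whose spread is kept at or above that of independent counts. Where it sits at that floor, they measure the counting of sites and not the spread between libraries. The lists hold insertions and no expression values, so the cell type was not checked against markers.

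piggyBac is a cut-and-paste transposon first found in a moth cell line. Its transposase excises the element without leaving a footprint and joins it to the target sequence TTAA, which is duplicated on both sides of the new copy. The natural element has unlike ends that carry different arrangements of internal repeats, and in mammalian cells it is known to insert often in open chromatin and near the start sites of active genes. A self-reporting transposon is transcribed outward across one of its ends into the neighbouring DNA, so the site of insertion can be read from RNA.

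Each list gives peaks of read coverage, and the highest coverage in a peak is called its height. A site is the 4-base target at the leading edge of a peak, counted once per library whatever its strand. The symmetric libraries listed 3950, 3801 and 4570 sites and the wild-type libraries 336333, 366085 and 427346. The number printed at the end of each row, taken as the library's total of reads although nothing names it, was 37.3-fold higher on average in the wild-type lists, and the number of sites was 91.7-fold higher. Heights added over all sites made up 12.2%, 12.2% and 13.3% of that total in the symmetric libraries and between 84.7% and 87.7% in the wild-type libraries. The median height was 6 in every symmetric library and between 11 and 13 in the wild-type libraries, with no list going below 5. Shares of sites are therefore given throughout, and most are set beside the same share among the 3801 tallest sites of every library, called number-matched. That number is the size of the smallest list. The lowest wild-type height kept by this matching was 101, 99 and 96, against 5 in the symmetric libraries, so matched sites are equal in number and not in height.

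Promoter positions that recur between symmetric libraries are shown first, with their sequences. RefSeq promoters of GRCh38.p14 give 22011 windows of 300 bases, each running from 250 bases before to 50 bases after a coding start site, for 15812 genes. Within them the symmetric libraries had 34, 45 and 38 sites, of which 32, 44 and 37 lay exactly on TTAA, a share of 96.4% ± 2.01 (SD, n = 3). The wild-type share was 97.4% ± 0.25, and the groups overlapped (two-sided exact permutation p = 0.9). Of 83 window positions listed in any symmetric library, 18 were listed in 2 of them and 6 in all 3. The 5 of these 6 whose 30 surrounding bases lie inside a window are printed here in the sense of the gene, with the TTAA in capitals, because they are the promoter positions that every symmetric library hit.
PRDX3: caagcattcagccTTAAagggaatttctcc
TDP1: ttctcctctcgttTTAAgaagtctccagga
PCOLCE2: accataatcgcctTTAAaagtgcctccgcc
RSRC1: gaaggcgctgagcTTAAactgaagcaagtt
CNOT6L: aaacagaaaaccaTTAAgaagcccgggcct

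The coordinates given for each position span the 30 printed bases (GRCh38, counted from 1), and distances are measured from the TTAA. The PRDX3 target lies within chr10:119178925-119178954, 129 bases upstream of the start site of this mitochondrial peroxidase gene, which is on the minus strand. Its heights were 9, 5 and 13 in the symmetric libraries and 23, 31 and 34 in the wild-type libraries. The PCOLCE2 target, at chr3:142889095-142889124 and 28 bases upstream of the start of a minus-strand gene for a procollagen-processing enhancer, had heights of 18, 15 and 13 against 80, 109 and 122. The CNOT6L target, at chr4:77820395-77820424 and 142 bases upstream of the start of a minus-strand gene for an mRNA deadenylase subunit, had 7, 5 and 9 against 80, 39 and 9. All 3 of these targets were thus listed in all 6 libraries, and their heights were not scaled to the library total.

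The RSRC1 target, at chr3:158110097-158110126, lies 21 bases downstream of the start of this plus-strand gene for a splicing-related protein. Its heights were 9, 7 and 9 in the symmetric libraries and 6, 106 and 6 in the wild-type libraries. The TDP1 target, at chr14:89955729-89955758, lies 185 bases upstream of the start of this plus-strand gene for a DNA repair enzyme and was the exception, with heights of 10, 9 and 13 in the symmetric libraries and a single wild-type listing of height 5, in replicate 2. At each of the 5 positions the 3 symmetric libraries listed the same strand, and the wild-type listing at TDP1 was on the other strand. The 5 positions were also listed 4 (PRDX3), 4 (TDP1), 7 (PCOLCE2), 6 (RSRC1) and 5 (CNOT6L) times among the 12 libraries of the other groups with small totals. In every case the strand was that of the symmetric libraries. None of these listings came from a piggyBat library.

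TTAA, which reads the same on both strands, occurs in 40.3% of the promoter windows, so most windows offer no target at all. Of the 14660 TTAA targets read there, 16.4% are flanked as TTTAAA, the form seen at PCOLCE2. TTTAAA made up 22.8% ± 4.14 of the symmetric TTAA sites and 22.01% ± 0.58 of the wild-type ones, and the groups overlapped (two-sided exact permutation p = 0.7). The share of a library's sites that fell in the windows did differ, at 0.959% ± 0.196 against 0.312% ± 0.0204, and at 0.965% ± 0.190 against 0.754% ± 0.0402 among number-matched sites. The groups overlapped in neither setting, and the exact permutation p was 0.1 in both, the smallest that 20 splits of 3 against 3 libraries can give.

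Positions recur between libraries, and the strand of a recurrent position depended on which lists were compared. Across the symmetric libraries together, 8625 positions were listed in 1 library, 1137 in 2 and 474 in all 3. In pairs of symmetric libraries a mean of 20.9% of the sites of one list were also in the other. The matching share was 27.0% against the libraries of the short transposon with hyperactive piggyBac (short_hyPB), 16.8% against the symmetric transposon with re-engineered piggyBac (sym_rePB), 15.6% against the short transposon with piggyBac (short_PB) and 6.94% against piggyBat (WT_PBat). It was 45.9% against WT_rehyPB lists, which are far longer.

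At positions shared between 2 symmetric libraries the strand was the same in 94.8% of cases. It was the same in 95.4% of positions shared with sym_rePB, 94.2% with short_hyPB, 89.1% with short_PB and 89.96% with WT_PBat, a different transposon. It was the same in 65.1% of positions shared with WT_rehyPB, in 64.9% with WT_rePB and in 58.97% with WT_hyPB. WT_rehyPB libraries listed the same strand at 71.7% of the positions they shared with each other and at 71.3% of those they shared with WT_PBat. The symmetric, short and piggyBat lists therefore stood together in strand, and all of them have small totals. Whether these lists share reads, and whether the shared strand bears on the results, was not tested. The shares and counts of calls are also given without the positions that any short_PB, short_hyPB, sym_rePB or WT_PBat library lists, which leaves 1715, 1657 and 2010 symmetric sites and between 321551 and 409970 wild-type sites.

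**Figure D1:**
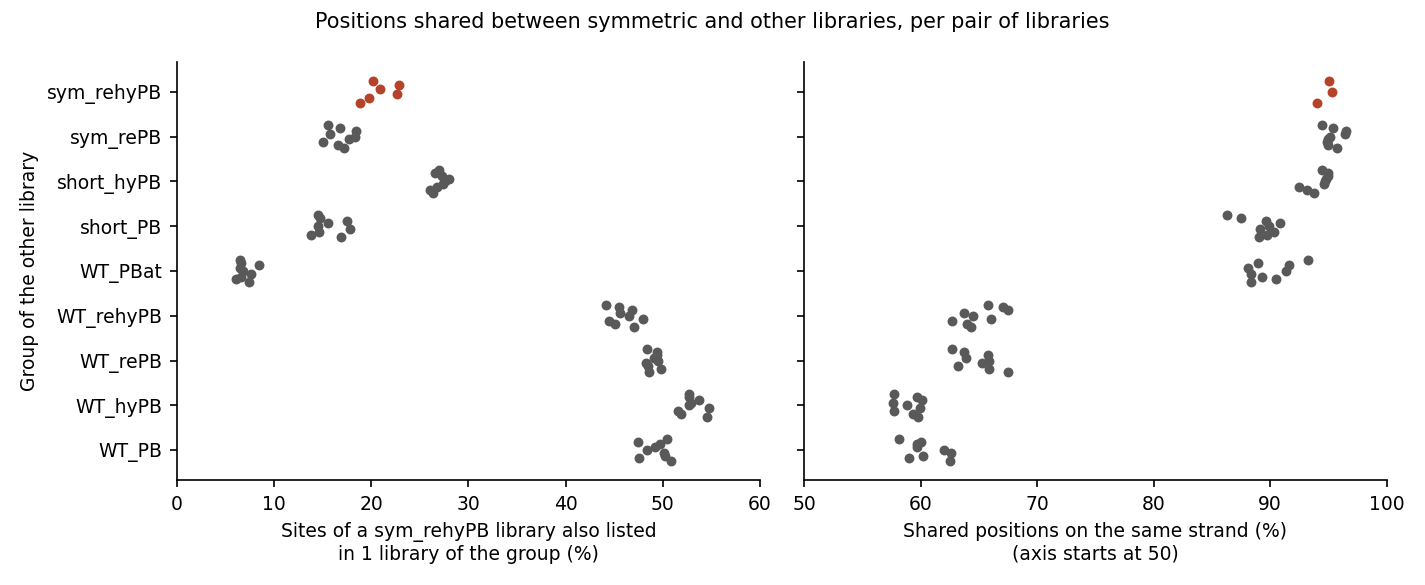
Each point is a pair made of 1 symmetric library and 1 library of the group on the vertical axis. The left panel plots the percentage of the symmetric library's sites that the other library lists too, the right panel the percentage of shared positions on the same strand, on an axis that starts at 50; the sym_rehyPB pairs are in red, and pairs with short, symmetric or piggyBat libraries reach from 86.3% upward, pairs with the wild-type piggyBac transposon up to 67.5%.

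With equal numbers of sites, the symmetric libraries shared more positions among themselves than with the wild type. A mean of 20.5% of number-matched symmetric sites recurred in another symmetric library, 12.5% of wild-type sites recurred in another wild-type library, and 6.57% were common to a symmetric and a wild-type library. Sharing within groups exceeded sharing between groups by 9.93 percentage points (one-sided exact permutation p = 0.1, the smallest possible). The symmetric sites shared 21.2% with short_hyPB on the same basis, close to the 20.5% among themselves, and that difference was not tested. In the full lists 66.9% ± 0.74 of symmetric sites lay at a position listed by at least 1 WT_rehyPB library. Recurrent positions were more often among them: 58.4% of the positions in 1 symmetric library, 84.9% of those in 2 and 89.7% of those in 3.

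Symmetric sites lay near the starts of coding genes far more often than wild-type sites. A site was counted as near when it was within 2 kb of the start of a coding transcript, outside chromosome 8, for which no starts were used. The share was 18.0%, 18.9% and 18.0% in the symmetric libraries and 6.18%, 6.18% and 6.06% in the wild-type libraries. Every symmetric library was above every wild-type library, and the ratio of the means was 2.98. Among number-matched sites the symmetric share was 18.4% ± 0.46 and the wild-type share rose to 11.96%, 12.8% and 12.7%, still without overlap. After removal of positions that other shallow libraries list, the shares were 12.3%, 13.7% and 11.2% against 5.60%, 5.62% and 5.54%. All these differences had a two-sided exact permutation p of 0.1, the smallest possible, and the value adjusted over the 8 measures compared per library was also 0.1.

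The difference held within classes of unscaled peak height, which do not match the libraries for their totals. Among sites of height 5 or 6 the start-site share was 17.4% ± 0.94 in the symmetric and 5.39% ± 0.19 in the wild-type libraries. Among sites of height 10 to 19 it was 19.2% ± 2.95 and 5.78% ± 0.07. Among sites of height 20 to 49 it was 12.96% ± 5.03 and 6.81% ± 0.10, still without overlap. That class held 44 to 55 sites per symmetric library, and the lowest symmetric share was 7.5% against a highest wild-type share of 6.91%. The wild-type share was highest at heights of 50 and more, at 9.28% ± 0.55, a class that held at most 1 site in a symmetric library. Symmetric sites at positions that a WT_rehyPB list also holds were near a start in 20.9% ± 0.10 of cases, and those in no such list in 13.05% ± 1.32.

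Around the start site itself the symmetric libraries gave a profile with a main peak upstream, a dip just downstream and a smaller peak beyond it. The highest step, from 1000 to 500 bases upstream, held 43.7 ± 0.57 of every 1000 symmetric sites, 10.9 ± 0.06 of every 1000 wild-type sites and 26.6 ± 2.11 of every 1000 number-matched wild-type sites. In the first 500 bases downstream the symmetric libraries had 14.8 ± 1.67 and the number-matched wild-type libraries 15.1 ± 1.16, values within each other's spread. From 500 to 1000 bases downstream they had 22.9 ± 1.53 and 12.1 ± 0.98. The symmetric excess over the matched wild type was thus found in the flanks of the start and not in its first 500 transcribed bases.

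Of the sites within 2 kb of a start, 63.6% ± 0.82 lay upstream in the symmetric and 56.0% ± 0.55 in the wild-type libraries (two-sided exact permutation p = 0.1, no overlap). In number-matched sites these values were 63.7% ± 0.75 and 64.3% ± 1.82, with an exact permutation p of 0.7. The upstream lean of the symmetric libraries was therefore not distinguishable from that of the tallest wild-type sites.

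**Figure D2:**
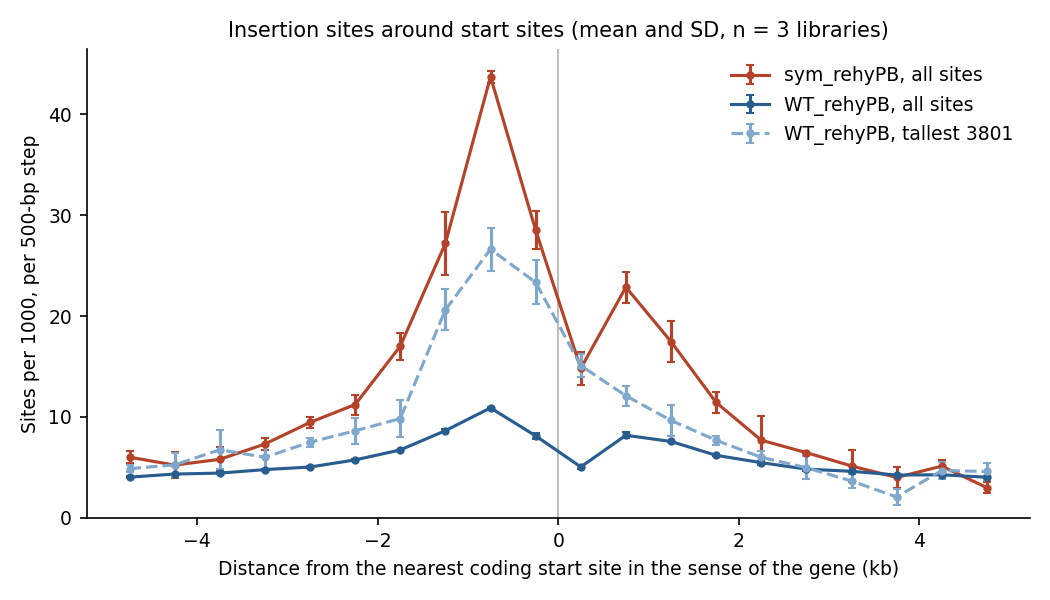
The plot gives insertion sites per 1000 sites of the library in steps of 500 bp, against the distance from the nearest coding start in the sense of the gene; points are means and bars SD of 3 libraries. The symmetric line peaks at 43.7 upstream of the start, above both wild-type lines, and meets the number-matched wild-type line just downstream of the start.

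By distance in either direction, the ratio was highest from 0.5 to 1 kb. Sites within 0.5 kb of a start were 3.29-fold more frequent in the symmetric libraries, those from 0.5 to 1 kb 3.49-fold, those from 1 to 2 kb 2.51-fold and those from 5 to 10 kb 1.15-fold. Among number-matched sites the ratio was 1.13 within 0.5 kb, with overlapping groups, 1.73 from 0.5 to 1 kb and 1.54 from 1 to 2 kb. Sites more than 100 kb from any start made up 19.1% ± 0.42 of symmetric and 31.6% ± 0.29 of wild-type sites. The median distance to a start was 26038 ± 533 bp in the symmetric libraries, 48324 ± 687 bp in the wild-type libraries and 35151 bp in number-matched wild-type sites.

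The ends of all annotated genes, coding or not, showed the same order. Sites within 5 kb of either end of a gene made up 46.8%, 47.0% and 46.9% of the symmetric and 32.0%, 32.3% and 32.1% of the wild-type libraries. The wild-type value rose to 41.7% ± 1.05 among number-matched sites, below the symmetric 47.0% ± 0.24 without overlap. Without positions of other shallow libraries the shares were 43.3% ± 0.76 and 31.4% ± 0.16.

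Gene deserts showed the reverse. Sites over 100 kb from any coding gene were 7.44%, 7.58% and 7.72% of the symmetric libraries and 14.9%, 14.7% and 14.97% of the wild-type libraries. Matching on number gave 7.55% ± 0.03 and 10.6% ± 0.38, and removal of the shared shallow positions gave 6.36%, 6.22% and 6.87% against 15.2%, 14.97% and 15.3%. The groups did not overlap in any of these comparisons (two-sided exact permutation p = 0.1, the smallest possible).

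The part of the sites that fell inside genes, coding or not, moved little, and its direction depended on which sites were counted. It was 62.0%, 61.0% and 61.3% in the symmetric and 64.7%, 64.5% and 64.1% in the wild-type libraries. Among number-matched sites the order turned, with 61.5% ± 0.53 against 59.4% ± 0.53. Without positions of other shallow libraries it was 64.4% ± 0.86 against 64.6% ± 0.31, with overlapping groups and a two-sided exact permutation p of 0.8.

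**Figure D3:**
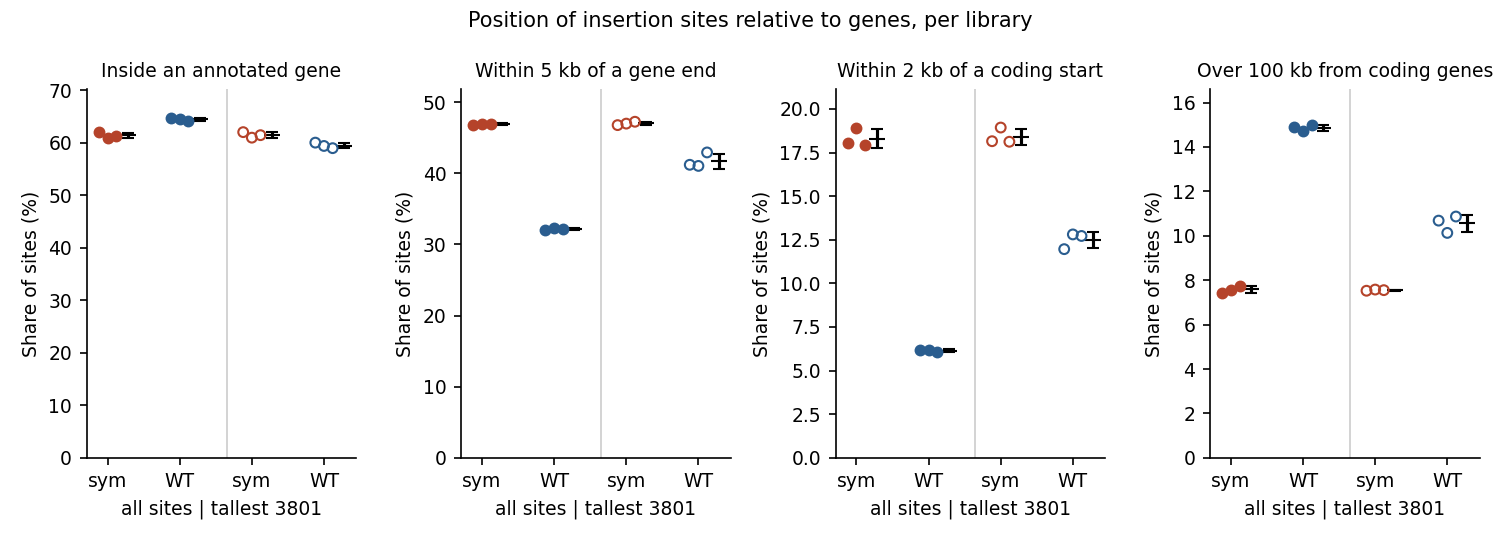
Each panel plots 1 share of sites in percent, with a point per library and the mean ± SD of 3 libraries beside it; red is sym_rehyPB and blue WT_rehyPB, filled for all sites and open for the 3801 tallest of each library. Near coding starts the symmetric points lie near 18% and the wild-type points near 6% for all sites and at 11.96% to 12.8% for the tallest, while inside genes the order of the groups turns between both settings.

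Inside coding genes of known strand, sites read in the sense of the gene were the smaller part in both groups. Their share was 42.9%, 39.9% and 40.8% in the symmetric and 38.2%, 35.6% and 36.4% in the wild-type libraries, without overlap. It was 41.4% ± 1.43 and 35.7% ± 1.58 among number-matched sites. Without positions of other shallow libraries it was 40.5% ± 2.23 and 36.6% ± 1.37, with overlapping groups. Over the whole genome the plus strand held 49.7% of symmetric and 49.9% of wild-type sites, with overlapping groups.

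Positions listed on both strands of 1 library were 1.35% ± 0.31 of symmetric and 3.79% ± 0.14 of wild-type sites. Among number-matched sites, which also differ in height, it was 1.46% ± 0.45 against 0.202% ± 0.055, the other way round. There the second strand had to reach the lowest height kept in that library, which was far higher in the wild type. The criterion thus differed between the groups, and no conclusion is drawn from the turn. Without positions of other shallow libraries the share was 0.109% ± 0.047 against 3.19% ± 0.163.

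Symmetric sites were shifted towards gene-dense chromosomes. Chromosome 19, the most gene-dense, with 1451 coding genes, held 4.81% ± 0.19 of symmetric and 1.52% ± 0.05 of wild-type sites, a ratio of 3.17. Chromosome 13, with 338 coding genes, held 1.09% ± 0.19 and 2.93% ± 0.04, a ratio of 0.373. Number matching brought these ratios to 1.77 and 0.634, in both cases without overlap of the groups. Chromosomes 22 and 17 also held more symmetric sites, at 1.87-fold and 1.81-fold, and the excess on chromosome 17 came to 1.10-fold with overlapping groups after matching. The X chromosome held 0.512 times the wild-type share, and 0.807 times with overlap after matching.

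**Figure D4:**
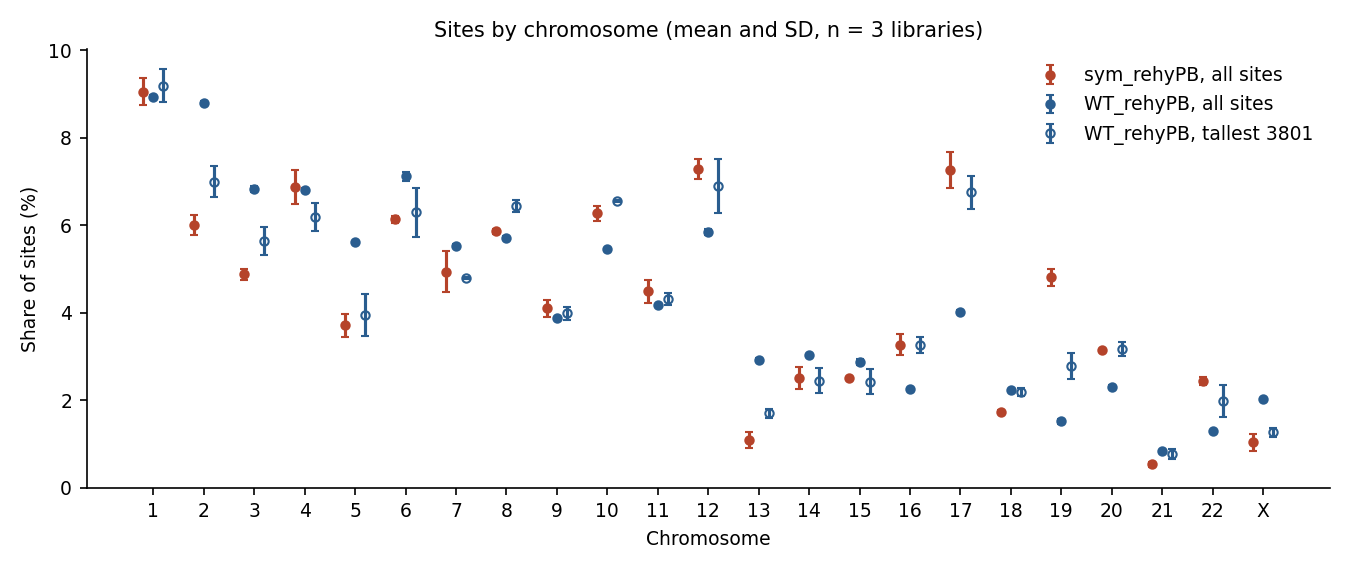
The percentage of sites on each chromosome is plotted as mean ± SD of 3 libraries, for all symmetric sites (red), all wild-type sites (filled blue) and the 3801 tallest wild-type sites per library (open blue). Chromosome 19 stands at 4.81% in the symmetric libraries, above 1.52% and 2.78% in the wild type, and chromosome 13 stands below both wild-type values.

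The same order held in bins of 5 Mb along chromosomes 1 to 22 and X. The 85 bins with 60 or more coding genes held 30.4% ± 0.34 of symmetric and 16.9% ± 0.32 of wild-type sites. The 115 bins with 5 to 14 coding genes held 7.29% ± 0.04 and 13.4% ± 0.06. In number-matched sites these ratios shrank from 1.80 to 1.21 and from 0.543 to 0.864, without overlap. The 31 bins with fewer than 5 coding genes held 2.49% ± 0.08 and 1.12% ± 0.03, and most of the symmetric share lay in the 1 bin that holds PCDH7. Without that bin the other 30 held 0.0753% ± 0.0488 and 0.686% ± 0.0189, lower in the symmetric libraries without overlap, and 0.0702% and 0.0789% of number-matched sites, with overlap.

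Of 451 bins tested with a quasi-Poisson model of site numbers, 89 were higher in the symmetric libraries (19.7% of the bins tested) and 163 were lower (36.1%), at a Benjamini-Hochberg adjusted p under 0.05. Together 55.9% of bins were called. The higher bins had a median of 65 coding genes, the lower bins 21 and the bins not called 31. Of the higher bins 9 lay on chromosome 19, and of the lower bins 0. Only 13 of 356 bins were called among number-matched sites (3.65%), 6 higher (1.69%) and 7 lower (1.97%), with 52 at an unadjusted p under 0.05. Of the 252 bins called with all sites, 172 could be tested there, 10 were called in the same direction and 32 had the opposite sign. Without positions of other shallow libraries 56 of 229 bins were called, 49 higher and 7 lower. Bins were tested where the mean share over both groups gave at least 3 expected sites in the smallest library. Which bins pass therefore changes with the set of sites. With the filter on the wild-type share alone, 303 of 559 bins were called with all sites, 88 higher and 215 lower. The balance of rises and falls thus depends on the filter.

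The first 5 Mb of chromosome 19, with 202 coding genes, held 91.1, 113 and 91.9 of every 10000 symmetric sites and 16.1, 17.3 and 15.7 of every 10000 wild-type sites. The log2 ratio was 2.59 ± 0.14 (SE), and the bin was also called among number-matched sites, at 100.0 against 43.8 per 10000 (adjusted p = 5.14e-04). The bin from 15 to 20 Mb of chromosome 19 held 78.3 ± 8.04 against 19.3 ± 0.45 and was called after matching too (adjusted p = 0.0242). The PCDH7 bin, from 30 to 35 Mb of chromosome 4 with 2 coding genes, held 241 ± 3.14 against 43.6 ± 2.53, with a log2 ratio of 2.47. After matching it held 243 ± 5.48 against 154 ± 51.3, with an adjusted p of 9.22e-04. The spread in the model sat at its floor of 1 for this bin. For the PCDH7 gene it was 1.95, and the gene was not called after matching (adjusted p = 0.170).

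The other bins among the 5 largest rises were not called after matching. The bin from 90 to 95 Mb of chromosome 8 held 118 ± 2.36 against 30.5 ± 0.57 (matched adjusted p = 0.153), and the last bin of chromosome 17 held 61.8 ± 14.9 against 17.0 ± 0.25 (matched adjusted p = 0.608).

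The 5 largest falls were bins of 9 to 30 coding genes in which the symmetric libraries listed at most 2 sites. From 165 to 170 Mb of chromosome 3 there was no symmetric site among 12321 in all, against 16.1 ± 0.29 per 10000 in the wild type. Taking 3 sites over the group as the limit, the symmetric share was at least 6.62-fold lower. From 70 to 75 Mb of chromosome 12 the shares were 0.729 and 17.8 per 10000, from 100 to 105 Mb of chromosome 5 they were 0.844 and 17.3, from 80 to 85 Mb of chromosome 6 they were 1.69 and 19.6, and from 105 to 110 Mb of chromosome 4 they were 1.46 and 17.0. None of these 5 passed the filter among number-matched sites.

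At the level of genes, 7 of the 10 coding genes with the most sites were the same for both transposons. The symmetric libraries had a site in 2883 of 19974 coding genes, and 293 genes had one in all 3 libraries. For the wild type 12816 genes had a site in all 3 libraries. DLGAP1, VMP1 and MTHFD1L, at ranks 3, 9 and 10 in the symmetric list, stood at 12, 39 and 25 in the wild type. The 10 leading symmetric genes held 694 of every 10000 symmetric sites, 116 of every 10000 wild-type sites and 545 of every 10000 number-matched wild-type sites.

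PCDH7, which encodes a protocadherin, a cell adhesion protein best known from neurons, led both lists. It spans 426 kb of chromosome 4, from 30720369 to 31146800. It held 233, 239 and 232 of every 10000 sites in the symmetric libraries and 31.8, 29.97 and 28.4 in the wild-type libraries, and among number-matched wild-type sites it held 97.3, 195 and 147. The symmetric libraries were above all wild-type libraries in both settings. The log2 ratio was 2.97 ± 0.09 (SE) with an adjusted p of 4.14e-10, and 0.69 with an adjusted p of 0.170 after matching. Without the positions of other shallow libraries the shares were 58.3, 121 and 79.6 against 25.8, 25.2 and 23.8.

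Within PCDH7 the symmetric sites were many different positions. The 3 libraries listed 92, 91 and 106 sites at 203 distinct positions, of which 138 were in 1 library, 44 in 2 and 21 in 3. A WT_rehyPB list also held 76.4% of them. The stretch from 100 to 120 kb after the gene start held 15.1% ± 3.73 of symmetric and 6.24% ± 0.27 of wild-type PCDH7 sites, and the stretch from 60 to 80 kb held 12.7% ± 2.45 and 6.21% ± 0.69. Sites in the sense of the gene were 48.2% ± 1.75 and 45.8% ± 1.72 of those in PCDH7.

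VTI1A, a SNARE gene of vesicle transport on chromosome 10, was second among symmetric genes, at 81.0, 89.5 and 72.2 per 10000 against 12.7, 13.1 and 12.3 in the wild type. The number-matched wild-type libraries gave 39.5, 47.4 and 52.6, below all symmetric libraries, with an adjusted p of 0.170. ACSL5, an acyl-CoA synthetase gene of fatty acid activation that ends shortly before VTI1A begins, held 17.2 ± 4.99 against 1.70 ± 0.18, a log2 ratio of 3.32 ± 0.33. It passed the filter on low values through its symmetric share alone and was not among the genes filtered on the wild-type share. Its matched wild-type share was 14.9 ± 3.04, within the spread of the symmetric libraries.

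For most other leading genes the number-matched wild-type sites gave the same level as the symmetric sites. DLGAP1, a postsynaptic scaffold gene, held 60.9 ± 5.05 per 10000 in the symmetric, 7.93 ± 0.14 in the wild-type and 57.0 ± 11.0 in the matched wild-type libraries. PHLDB2, whose product anchors microtubules at the cell cortex, held 55.3 ± 2.86, 9.60 ± 0.48 and 53.5 ± 1.52. MPP7, a polarity scaffold gene, held 58.5 ± 12.7, 11.4 ± 1.22 and 56.1 ± 14.5. VMP1, an autophagy gene, held 33.1 ± 6.76, 4.56 ± 0.25 and 27.2 ± 4.02. In all 4 the symmetric libraries and the matched wild-type libraries overlapped.

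The same overlap was found for NSMCE2, a SUMO ligase gene of DNA repair, for PPP3CA, a calcineurin subunit gene, for PALLD, an actin-binding protein gene, and for MTHFD1L, a gene of mitochondrial folate metabolism. Their symmetric shares were 53.8, 51.9, 35.0 and 30.1 per 10000, with 11.6, 10.4, 12.3 and 5.11 in the wild type and 57.0, 31.6, 33.3 and 36.8 in the matched wild type. For PPP3CA the lowest matched symmetric and the highest matched wild-type library tied at 36.8. Its level was not the same after matching, with a log2 ratio of 0.71 ± 0.31 (SE) and an adjusted p of 0.362 from the quasi-Poisson model.

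3 genes led only the wild-type list. ZBTB20, a transcriptional repressor gene, held 10.7 ± 2.25 in the symmetric and 12.9 ± 0.77 per 10000 in the wild-type libraries, which is rank 26 against rank 2. Its log2 ratio was -0.29 ± 0.40 with an adjusted p of 0.477. RAD51B, a gene of homologous recombination, held 8.08 ± 0.60 and 10.9 ± 0.46, and CDKAL1, a tRNA-modifying enzyme gene, held 7.20 ± 1.78 and 8.32 ± 0.19. ZBTB20 and RAD51B did not pass the test, and CDKAL1 was not tested. Number matching gave 10.5 ± 2.63 and 8.77 ± 5.48 for ZBTB20, 8.77 ± 1.52 and 9.65 ± 1.52 for RAD51B, and 7.89 ± 2.63 and 7.02 ± 4.02 for CDKAL1, with overlapping groups in all 3.

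**Figure D5:**
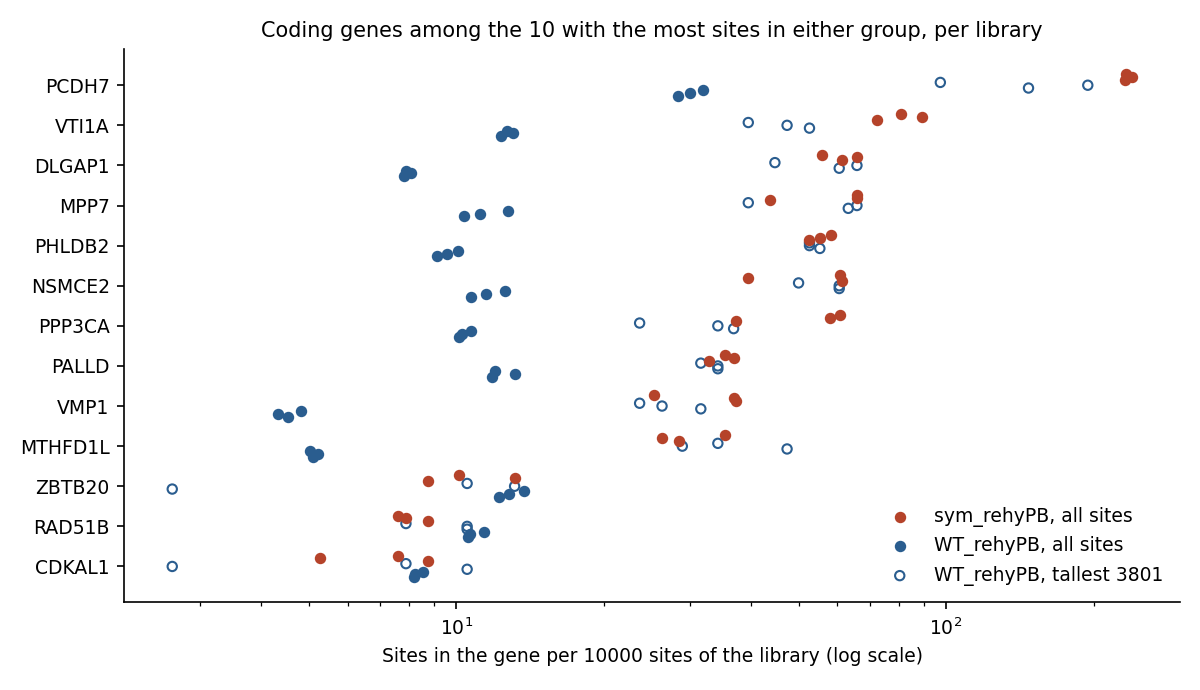
Sites per 10000 sites of the library are plotted on a log axis for the 13 coding genes that stand among the 10 highest of either group, with 1 point per library. Red points (symmetric) lie right of the filled blue points (wild type) for the first 10 genes, and the open blue points (the 3801 tallest wild-type sites) lie left of all red points for PCDH7, VTI1A and, narrowly, PPP3CA.

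The test over genes was limited by the few symmetric sites. The filter asked for at least 3 sites expected in the smallest library from the mean share over both groups, and 25 genes passed. All 23 genes called were higher in the symmetric libraries, which is 92% of those tested. This filter passes a gene through its symmetric share, so these 23 calls are no evidence of an excess of rises. With the filter placed on the wild-type share alone, 201 genes were tested and 16 were called, all higher (7.96%), with 82 at an unadjusted p under 0.05 and 53 without any symmetric site. In a single simulated set of these genes, built from the mean share over both groups, the test found 50% of 14 genes raised 4-fold. It found 16.7% of 12 genes lowered 4-fold. Among number-matched sites 0 of 38 genes were called, with 5 at an unadjusted p under 0.05. Without positions of other shallow libraries 6 genes passed the filter and all 6 were called higher. limma-voom, run on all sites only, called 23 of 25.

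The remaining genes of the 10 largest rises that are not described so far were TXNRD1, a thioredoxin reductase gene that, like ACSL5, passed the filter through its symmetric share alone, IRAG1, a regulator of calcium release, and ARSG, a lysosomal sulfatase gene. They held 14.1 ± 4.72, 13.6 ± 3.58 and 13.9 ± 4.20 per 10000 in the symmetric and 2.40, 2.49 and 2.64 in the wild-type libraries. Of these, ARSG alone stayed above the matched wild type without overlap, at 14.9 ± 4.02 against 4.38 ± 4.02. No gene was called lower.

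Lists of related genes, read with the filter on the wild-type share, showed mostly small numbers of symmetric sites. The common fragile site genes, very long genes prone to breakage, stood apart in their values: 6 of 17 had a symmetric site, and together they held 7.35 ± 0.70 per 10000 symmetric and 49.2 ± 0.69 per 10000 wild-type sites. All 9 tested members had fitted values below the wild type, and none passed the test. The filter passes genes through their wild-type share, which favours falls. Over all 201 genes tested the median fitted log2 ratio was -1.13, and 53 genes had no symmetric site. The count of 9 is therefore no evidence of an excess of falls. With every gene of fewer than 3 symmetric sites set to 3 sites over the group, the median log2 ratio of the tested members was -0.78. Over all 201 genes tested it was -0.18 on the same basis. Only LRP1B among the tested members had more than 3 symmetric sites. For the others the ratio follows from the wild-type share alone, so no conclusion is drawn from these medians. LRP1B, a lipoprotein receptor gene, had 3.33 ± 1.68 against 6.65 ± 0.30 per 10000. Among number-matched sites the list held 7.89 ± 0 and 10.5 ± 9.49, which overlap in spread.

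Among 19 long neuronal adhesion genes PCDH7 was the only 1 with a symmetric site. Its relative PCDH9 had none, against 279 sites and 2.48 ± 0.23 per 10000 in the wild type, close to the limit of 2.43 that 3 sites over the symmetric group give. PCDH7 was the 1 member called of 2 tested.

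Of 26 Wnt pathway genes 9 had a symmetric site, and the list held 21.6 ± 5.33 and 20.6 ± 0.28 per 10000, or 20.2 ± 4.02 and 17.5 ± 8.04 when number-matched. TCF7L2, the main transcription factor of the pathway in the gut, held 8.05 ± 2.51 against 3.37 ± 0.03, with a log2 ratio of 1.27 ± 0.46 and an adjusted p of 0.115. TNIK, a kinase of the same pathway, held 1.72 ± 1.49 against 4.52 ± 0.52 (adjusted p = 0.271). Neither passed the test.

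Of 22 growth factor receptor and RAS-PI3K genes 7 had a symmetric site, and the list held 23.6 ± 3.71 and 18.998 ± 0.08 per 10000. Among number-matched sites the order turned, at 24.6 ± 4.02 and 26.3 ± 2.63. MET, the hepatocyte growth factor receptor gene, held 17.7, 7.89 and 13.1 against 4.01, 4.43 and 4.82, with all symmetric libraries higher. Among number-matched sites it held 14.03 ± 5.48 and 13.15 ± 6.96, with overlapping groups and an adjusted p of 1. Its log2 ratio over all sites, 1.54 ± 0.37, passed at an adjusted p of 0.0046 among 25 genes and missed at 0.0869 among 201. ERBB2, a receptor kinase gene with too few sites to be tested, had 6 symmetric and 25 wild-type sites, or 4.75 ± 1.99 against 0.229 ± 0.113 per 10000. Other members of the list went the other way. EGFR had 0 symmetric and 275 wild-type sites, or 2.43 ± 0.14 per 10000 in the wild type. That is at the limit of 2.43 that 3 sites over the symmetric group give. NF1 had 0 and 162 sites, and IGF1R held 1.61 ± 1.41 against 2.01 ± 0.08 per 10000.

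Of 19 gut epithelial transcription factor genes 3 had a symmetric site (HNF4A, KLF5 and EHF, 1 site each), and none was tested. This list held 2.63 ± 4.56 and 4.50 ± 0.56 per 10000, or 2.63 ± 4.56 and 6.14 ± 3.04 when number-matched. Of 19 chromatin and co-regulator genes 10 had a symmetric site. Of these, 3 were tested and none passed, and the list held 29.01 ± 9.88 and 31.6 ± 0.50 per 10000. Among number-matched sites the order turned, at 28.1 ± 10.6 and 21.9 ± 3.04. HDAC4, a histone deacetylase gene, had 8 of these sites, at 6.44 ± 3.75 against 1.80 ± 0.22 per 10000.

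The change from the wild-type to the symmetric transposon was also made with re-engineered piggyBac without the hyperactive changes (sym_rePB against WT_rePB). These libraries are not in the main comparison, but their lists entered the results on shared positions and strand. The sym_rePB lists also served to remove shallow positions. They gave the same strand as sym_rehyPB at 95.4% of shared positions, and sharing of reads was not tested. This pair may therefore not be independent of the main one. The start-site share was 17.4% ± 0.95 and 5.04% ± 0.04 there, and the gene-end share was 46.2% ± 1.39 and 30.7% ± 0.24. The symmetric effects of both pairs differed by -0.15 percentage points for the start-site share (two-sided exact permutation p = 0.83) and by -0.77 for the gene-end share (p = 0.335 by the same exact test). In that pair 13 of 13 tested genes were called (100%), all higher and all among the 23 called here. The filter passes genes through their symmetric share there too, so this count supports nothing. PCDH7 held 261 ± 22.4 against 23.1 ± 0.41 per 10000 in that pair. Number matching there kept the 2814 tallest sites of each library, the size of the smallest list of that pair. It gave 268 ± 14.8 against 230 ± 28.7, and the groups overlapped.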

How the data were processed

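The 27 lists were deposited as text without a header, 1 per sample. Coverage summed over each peak and the highest coverage in it (height) are signal values that the authors deposited unscaled, as far as the values show. The last column holds 1 constant per list, a number the authors deposited without a name. Cutadapt 3.4, HISAT2 2.2.1.0 and the builds hg38 and GRCh38.p5 are named in the submitters' processing notes. Which program called the peaks, and whether duplicates were removed, is not given in the sources used here. Reads were amplified by PCR and carry no molecular identifiers, so a height is no count of molecules.

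A site was the first edge of a plus-strand peak, or the last edge minus 3 bases of a minus-strand peak, on chromosomes 1 to 22 and X. RefSeq GRCh38.p14 gave 59098 genes, 19974 of them coding, and 22132 coding start sites. Values per library were compared with exact permutation tests. Differences between the symmetric effects of both pairs were tested by permutation after their mean was subtracted, which is approximate. Site numbers per gene and per 5-Mb bin were fitted with a quasi-Poisson model in R 4.3.3, with total sites as offset, dispersions moderated with limma 3.58.1 (squeezeVar) and kept at 1 or more, a moderated F test and Benjamini-Hochberg adjustment over all features tested. In a single simulated set the bin test found 95.8% of 24 bins lowered 4-fold, 55.6% of 27 lowered 2-fold and 88% of 25 raised 2-fold. Of its calls 4% were false. Python 3.11.15, pandas 2.3.3 and numpy 2.4.6 did the rest.

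Genes named are the 10 with the most sites in each group, the 10 largest rises and falls among called genes without overlap of the groups, and list members past the filter. Bins named are the 5 largest rises and falls. ERBB2, EGFR, NF1, IGF1R, LRP1B, PCDH9, HDAC4, TCF7L2, TNIK and the gut factors were named after their values were seen. The comparison and the gene lists were chosen with earlier results of these data known. Alternatives were other sets of sites, filters, scales and tests, the replicate block and leaving out each library. Those without positions of other shallow libraries, weighted by height, or filtered on the wild-type share, the start-site and sense shares, the promoter-window share of matched sites and the bins without that of PCDH7 were added after seeing the data.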

Additional observations from a re-analysis of the deposited data

Results flagged for a closer look

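The change from the wild-type to the symmetric transposon differed between re-engineered hyperactive piggyBac and re-engineered piggyBac in 5 of 8 measures per library. The test was a two-sided permutation of libraries within each pair (smallest possible p = 0.005, adjusted over 8 tests). The mean effect of both pairs, estimated from the same libraries, was first subtracted, so its p-values are approximate. Each value here is the symmetric minus wild-type difference of the hyperactive pair minus that of the other pair. The pairs also differed in mean list size, at 4107 (sym_rehyPB) and 3056 (sym_rePB) sites. The wild-type lists held 376588 (WT_rehyPB) and 554208 (WT_rePB) sites. Whether these sizes bear on the differences was not tested. The share of sites inside genes differed by -1.51 percentage points (adjusted p = 0.03), as it fell by 3.04 in the hyperactive pair and by 1.53 in the other. The share over 100 kb from coding genes differed by 0.70 percentage points (adjusted p = 0.048). The share of positions listed on both strands differed by 1.53 percentage points and the share of summed height in the tallest 100 sites by -1.001, both with an adjusted p of 0.0133. Sites per 1000000 of the list total differed by 9380, with the same adjusted p.

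Number matching kept 3801 sites per library in the hyperactive pair and 2814 in the other. With these sites the difference was -1.75 percentage points for the share inside genes (p = 0.045 by the same permutation test). It was 1.03 for the share far from genes (permutation p = 0.025) and 0.42 for both strands (permutation p = 0.125). For summed height it turned to 0.49 (permutation p = 0.02).

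PCDH7 was the 1 gene of 25 whose log2 ratio differed between the pairs, by -0.52 (adjusted p = 0.014 from the quasi-Poisson model), with a higher ratio in the pair without hyperactive changes. With number-matched sites the difference in its share was 51.5 per 10000 in the other direction (p = 0.16 by the permutation test used for the shares).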

How the results depend on the processing

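Matching on number or on height relative to the list total turned some differences round. Differences are symmetric minus wild type. Relative-height matching keeps 168 ± 41.3 wild-type sites per library. Under it sites per 1000000 of the list total became 12695 and the share of height in the tallest 100 sites became -57.0 percentage points. The share inside genes became 2.02 (number-matched) and 2.47 (relative height), and the share on both strands 1.25 and 1.20. For the latter share the second strand had to reach the lowest height kept, which was higher in the wild type. No conclusion is drawn from that turn. With all listed sites, sharing within groups minus sharing between groups was -5.09. Genes called fell to 4 without a filter, 11 on a median scale (4 higher and 7 lower, after a shift of 2.25 log2), 0 when number-matched and 6 without positions of other shallow libraries. Bins called fell to 157 with limma-voom (53 higher, 104 lower), 13 when number-matched, 4 when relative-height-matched (of 5 bins called before and tested there, 0 in the same and 4 in the opposite direction) and 56 without positions of other shallow libraries. A median scale gave 119 higher and 92 lower bins. Log2 ratios turned to -0.010 for NSMCE2, -0.75 for PALLD and -0.71 for MET on the median scale. They turned to -0.12 for NSMCE2, -0.26 for MTHFD1L and 0.26 for ZBTB20 when number-matched, and to -0.63 and -1.59 for the bins of chromosomes 4 and 8 under relative height. The causes were not tested, except that the median scale subtracts its shift.

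Leaving out 1 library at a time gave from -26349 to -24247 sites per 1000000, -3.32 to -2.81 percentage points inside genes, 14.7 to 14.8 near gene ends, 11.8 to 12.3 near starts, -7.36 to -7.21 far from genes, 3.59 to 5.19 in sense, -2.62 to -2.33 on both strands, 6.87 to 7.45 for the tallest 100 sites, 7.77 to 12.4 for sharing, 16 to 24 genes, 190 to 226 bins and 12 to 15 genes of the other pair. With the replicate number as a block, 19 genes, 186 bins and 13 genes of the other pair were called, and the paired exact test of each share gave 0.25, its smallest p. Same-numbered libraries correlated at 0.069, 0.042 and 0.067 in their deviations over bins. The variance between libraries over bins averaged 0.94 (wild type) and 0.85 (symmetric) times that of independent counts. Deviations of that size are counting noise, so these correlations cannot show whether the numbers pair the libraries. Genes could not be fitted under relative height, and the bin without symmetric sites has no finite ratio. Of the other measures run, height weighting, the height minimum of 10 and removal of PCDH7 kept their directions.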
